A study of Mus musculus with 2 samples.

Results

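Six3, Dlx1, Dlx2, Dlx5, Nkx2-1, Sox11, Isl1 and Lhx9, 8 transcription factor genes that pattern the embryonic forebrain and hypothalamus, were followed in the neural cells of 2 droplet single-cell libraries from mouse brain. They are 8 of the 31053 features of each count matrix, were taken by gene symbol, and each had a UMI (a count of 1 captured RNA molecule) in neural cells of both libraries. The stressed library came from 5 embryos of 1 CD1 dam that had spent 30 min a day at 4 °C for 5 days from E11.5, and the control library from 10 embryos of 1 CD1 dam without cold exposure. In both, the wild-type hypothalamic and thalamic region was dissected at E15.5, pooled, stained with Cd11b-PE and Cd45-FITC, and sorted for cells with both proteins, which mark microglia and other myeloid cells. The sort was not aimed at neural cells, and those described here are the ones it let through. Each condition is 1 pool of litter mates in 1 library, so no difference between the conditions has a replicate check, and intervals below are 95% exact intervals of counting error only.

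The forebrain is divided early into domains by transcription factors that bind DNA through a homeodomain or an HMG box. Dlx genes sit in neighbouring pairs and are expressed along the path that leads ventral progenitors to GABA neurons, which use the inhibitory transmitter GABA. Nkx2-1 marks the ventral telencephalon and much of the hypothalamus, Six3 the anterior forebrain and eye field, Isl1 ventral and hypothalamic neurons, and Lhx9 thalamic and other glutamatergic neurons, while Sox11 is switched on broadly as neurons form.

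In GRCm38 with the GENCODE M21 annotation, Dlx1 lies at chr2:71528113-71533981 on the plus strand and Dlx2 at chr2:71543408-71546754 on the minus strand, with their 3′ ends facing each other across 9426 bases. Dlx5 lies at chr6:6877805-6882085, minus strand, 9236 bases from Dlx6. Nkx2-1 (chr12:56531958-56536908, minus strand) and Sox11 (chr12:27334264-27342574, minus strand) share chromosome 12 but lie far apart. Six3 lies at chr17:85613608-85629302 on the plus strand, Isl1 at chr13:116298281-116309689 and Lhx9 at chr1:138825186-138848577, both on the minus strand. All are protein-coding. Dlx1 is overlapped by the antisense gene Dlx1as, Nkx2-1 by Gm26973 and Six3 by Gm28528, all on the opposite strand. Whether counting used the strand is not given in the sources used here, so without strand the reads of these 3 genes and of their partners could not be told apart.

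The upstream bases of 3 genes are shown as examples of 3 patterns in the results: Dlx2, found in the same cells as Dlx1, Isl1, with the lowest ratio between the libraries, and Nkx2-1, with a ratio near 0 on the log2 scale. The sequences are the bases before the annotated start from RefSeq on GRCm38.p6, written 5′ to 3′ on the gene's own strand, chr2:71546755-71547004 for Dlx2, chr13:116309690-116309938 for Isl1 and chr12:56536909-56537158 for Nkx2-1, all minus strand. Capitals mark a CCAAT box (CCAAT or ATTGG) or a GC box (GGGCGG or CCGCCC).
Dlx2: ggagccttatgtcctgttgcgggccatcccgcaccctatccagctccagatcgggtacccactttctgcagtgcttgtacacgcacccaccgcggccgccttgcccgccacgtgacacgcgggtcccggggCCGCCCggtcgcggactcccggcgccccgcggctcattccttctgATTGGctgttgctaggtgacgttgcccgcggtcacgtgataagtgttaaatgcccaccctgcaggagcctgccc
Isl1: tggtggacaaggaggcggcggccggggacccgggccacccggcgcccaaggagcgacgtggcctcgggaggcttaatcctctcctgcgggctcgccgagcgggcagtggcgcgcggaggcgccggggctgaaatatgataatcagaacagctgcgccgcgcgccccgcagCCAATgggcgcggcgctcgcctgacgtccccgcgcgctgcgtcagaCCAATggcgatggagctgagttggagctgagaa
Nkx2-1: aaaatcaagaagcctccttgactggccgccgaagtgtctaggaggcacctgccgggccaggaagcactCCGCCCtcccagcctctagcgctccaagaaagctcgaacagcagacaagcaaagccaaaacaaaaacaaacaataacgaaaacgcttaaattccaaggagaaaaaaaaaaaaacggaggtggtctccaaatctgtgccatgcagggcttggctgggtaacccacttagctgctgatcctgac
The Isl1 window holds 2 CCAAT boxes, the Dlx2 window 1 CCAAT box and 1 GC box, and the Nkx2-1 window 1 GC box. Over 32851 windows of the same table, 33.8% held a CCAAT box and 32.7% a GC box on either strand. None of the 3 windows held the homeodomain core TAATTA (in 4.84% of windows) or TATAAA (in 12.4%). RefSeq entries were matched for 7 of the 8 genes, and Dlx5 had none.

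Of the barcodes, 1407 stressed and 1068 control cells passed a filter of 500 genes or more and 10% mitochondrial UMIs or less. Neural cells were gated on 12 progenitor and 12 neuron markers, none of them one of the 8 factors, and numbered 150 in the stressed library (10.7%, 9.10 to 12.4%) and 198 in the control library (18.5%, 16.3 to 21.0%). Progenitors, with more progenitor than neuron markers, were 60 stressed and 62 control cells, and neurons, with the reverse, 86 stressed and 128 control cells. The labelled cell type was microglia, and 1244 stressed and 845 control cells were myeloid by 24 markers. Itgam, which encodes CD11b, had 0 UMIs in progenitors and neurons of both libraries, and Ptprc, which encodes CD45, had 1 UMI in stressed progenitors and 0 elsewhere in them. Of the 24 myeloid markers, 21 had a UMI in neurons and 21 in progenitors of the stressed library, and 16 and 15 in those of the control library. Summed, they stood at 585 CPM in stressed neurons and 215 CPM in control neurons, and at 281 and 207 CPM in stressed and control progenitors, against 29651 and 28685 CPM in the myeloid cells. CPM are the UMIs of a gene scaled to a class total of 1e6 UMIs.

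The libraries stood apart in ways other than the treatment. Neural cells had a median of 3212.5 UMIs in the stressed and 1563.5 in the control library. Xist, the RNA of the inactive X chromosome, stood at 1972 CPM in stressed and 953 CPM in control neural cells, and 4 Y-linked genes had 0 and 34 UMIs there. In myeloid cells the Y-linked genes had 1 UMI in the stressed and 222 UMIs in the control library. The sex make-up of the cells thus differed along with the condition. Both libraries held the same 13 barcodes, and 12 of these had at least 10 times as many UMIs in one library, but the neural gate held none of the shallower copies. Of the deeper copies it held 4 stressed and 7 control cells. Red blood cell genes stood at 30393 CPM in stressed progenitors, against 85.8 CPM in control progenitors. The median progenitor held 0 of these 8 genes in each library, so the stressed sum came from part of the cells. The part of these differences in the results was not tested, beyond the alternatives given beside them.

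In neural cells, Dlx1, Dlx5 and Isl1 stood more than 2 times lower in the stressed library than in the control library, Dlx2 and Sox11 more than 1.5 times lower, and Six3, Nkx2-1 and Lhx9 within 1.5 times. Of 6617 genes with at least 20 UMIs summed over both libraries, as all 8 factors had, 3.78% were 2 times lower in stressed cells, against 3 of the 8. The share 1.5 times lower was 13.3%, against 5 of 8, and the share 1.5 times higher 10.4%, against 0 of 8. The median log2 ratio was −0.69 over the 8 factors and −0.07 over all 6617 genes. Of 3421 genes with at least 50 CPM in either library the shares were 2.66%, 10.3% and 5.93%, but Dlx5 and Isl1 reached 50 CPM only in the control library, where they were high, so the factors are not read against these. In bulk sums of this kind, fewer cells that express a gene and less RNA per cell cannot be told apart.

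Dlx1, which acts with Dlx2 in the specification of GABA neurons, had 41 UMIs or 62.3 CPM (44.7 to 84.5) in stressed neural cells, against 90 UMIs or 210 CPM (169 to 258) in control neural cells. This was 3.37 times lower, a log2 ratio of −1.75 (−2.32 to −1.20), and the intervals of the libraries did not overlap. A Dlx1 UMI was found in 21 of 150 stressed cells (14.0%) and in 44 of 198 control cells (22.2%), although control cells were the shallower ones. With each cell thinned to 1000 UMIs, the shares were 6.29% (9 of 143 cells, 2.92 to 11.6%) in stressed and 18.2% (31 of 170 cells, 12.7 to 24.9%) in control cells. The ratio was −1.51 (−2.21 to −0.84) in neurons and −1.97 (−3.21 to −0.85) in progenitors, so the control library was the higher one in both classes. Among neurons with an Xist UMI and no Y-linked UMI, 73 stressed and 52 control cells, the ratio was −0.73. Dlx1as, its antisense gene, had 4 UMIs in stressed and 12 UMIs in control neural cells.

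Dlx2, its neighbour, had 48 UMIs or 72.9 CPM (53.7 to 96.6) in stressed and 49 UMIs or 114 CPM (84.5 to 151) in control neural cells, a log2 ratio of −0.65 (−1.25 to −0.04). The 2 intervals overlapped, and in neurons the interval of the ratio (−1.24 to 0.20) held 0. At equal depth the shares of cells with Dlx2 were within counting error, 9.09% (13 of 143) of stressed and 10.0% (17 of 170) of control cells. The ratio moved to −0.12 with thinned cells.

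Dlx5, a homeobox gene of the other Dlx pair and expressed later along the same path, had 13 UMIs or 19.7 CPM (10.5 to 33.8) in stressed neural cells. In control neural cells it had 35 UMIs or 81.6 CPM (56.8 to 113). The log2 ratio was −2.05 (−3.09 to −1.09), or 4.13 times lower, without overlap of the intervals. Neurons held 10 of the 13 stressed and 30 of the 35 control UMIs. Progenitors held 3 stressed and 2 control UMIs, at or under the floor of 3 counts. With a stricter filter, 1000 genes or more and 5% mitochondrial UMIs or less per cell, the ratio was −0.9999.

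Isl1, a LIM-homeodomain gene of ventral forebrain and hypothalamic neurons, had 14 UMIs or 21.3 CPM (11.6 to 35.7) in stressed neural cells. In control neural cells it had 53 UMIs or 124 CPM (92.5 to 162). Its log2 ratio, −2.54 (−3.50 to −1.67) or 5.81 times lower, was the lowest of the 8. The UMIs were spread over 12 stressed and 34 control cells, with at most 3 and 5 UMIs in 1 cell, so no single cell carried either total. At equal depth, 4.20% (6 of 143, 1.56 to 8.91%) of stressed and 11.8% (20 of 170, 7.34 to 17.6%) of control cells had an Isl1 UMI. In neurons the ratio was −2.57 (−3.73 to −1.56), and progenitors held 3 stressed and 7 control UMIs. Across the alternatives run, the ratio in neural cells ranged from −2.74 to −1.92.

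Sox11, an HMG-box gene of the SoxC group that promotes neuronal differentiation, was the factor found in most cells. It had 832 UMIs or 1263 CPM (1179 to 1352) in stressed and 899 UMIs or 2096 CPM (1961 to 2237) in control neural cells, a log2 ratio of −0.73 (−0.87 to −0.59). It stood lower in stressed neurons (−0.52, −0.69 to −0.36) and in stressed progenitors (−0.78, −1.08 to −0.47). The shares of cells with a UMI were within counting error, 83.3% of stressed and 83.8% of control cells, and 64.3% (55.9 to 72.2%) and 68.8% (61.3 to 75.7%) at equal depth. Thinning moved its ratio to −0.29, and leaving out cells with 4 or more myeloid markers moved it to −0.55. Of the other 2 SoxC genes, Sox4 had a ratio of −0.42 (−0.64 to −0.20) and Sox12 −0.92 (−1.60 to −0.24).

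Nkx2-1, a homeobox gene of the ventral telencephalon and hypothalamus, had 151 UMIs or 229 CPM (194 to 269) in stressed and 93 UMIs or 217 CPM (175 to 266) in control neural cells. The log2 ratio was 0.08 (−0.30 to 0.47), and the libraries overlapped in neurons and in progenitors too. Single deep cells weighed on the stressed sum. A neuron of 18004 UMIs held 25 UMIs of Nkx2-1 and 12 of Six3, an unresolved cell of 22086 UMIs held 22 and 18, and a progenitor of 25985 UMIs held 12 and 1. The barcodes of this unresolved cell and this progenitor were held by both libraries. The mean of single-cell CPM, in which each cell weighs the same, gave −0.36 for Nkx2-1.

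Six3, a homeobox gene of the anterior neural plate, had 65 UMIs or 98.7 CPM (76.2 to 126) in stressed and 36 UMIs or 83.9 CPM (58.8 to 116) in control neural cells, a log2 ratio of 0.23 (−0.38 to 0.86). In neurons it was 0.69 (−0.39 to 1.87), with 12 of the 24 stressed UMIs in the 1 cell named above, and 0.06 with the top cell of each library left out, and 1.85 among neurons with an Xist UMI and no Y-linked UMI. In progenitors it was −0.77 (−1.69 to 0.15) at 22 UMIs in each library. No difference in Six3 was detectable at this depth.

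Lhx9, a LIM-homeodomain gene of thalamic and other dorsal neurons, had 33 UMIs or 50.1 CPM (34.5 to 70.4) in stressed and 20 UMIs or 46.6 CPM (28.5 to 72.0) in control neural cells, a log2 ratio of 0.10 (−0.74 to 0.98). In neurons the ratio was also 0.10, from 29 UMIs in 14 stressed cells and 20 UMIs in 11 control cells. With the stricter filter on genes and mitochondrial UMIs, the ratio in neural cells was 1.35.

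By class, Dlx1, Dlx5 and Isl1, 3 of the 8, were 2 times lower in stressed neurons, against 3.93% of 3614 genes with at least 20 UMIs in the neurons of both libraries together. Dlx2 and Sox11 were less than 1.5 times lower in stressed neurons, and Six3 was more than 1.5 times higher with an interval that held equal levels. Of 3423 genes with at least 50 CPM in either library 5.96% were 2 times lower, a limit that Dlx5 and Isl1 again passed only in the control library. In progenitors, 5 of the factors reached 50 CPM in either library and Dlx1 alone was 2 times lower, having reached it only in the control library, and 9.83% of 3835 genes were. TMM scaling moved all log2 ratios by 0.20 in progenitors, and by 0.08 in all neural cells and 0.04 in neurons. In myeloid cells of the same libraries, taken as background from free RNA, Sox11 stood at 5.23 CPM in stressed and 5.32 CPM in control cells, and the other 7 factors at no more than 1.22 CPM. A Sox11 UMI was found in 1.77% of stressed and 1.42% of control myeloid cells, and a UMI of any one of the other factors in at most 0.482%. Median depths there were 4012 and 2216 UMIs, above those of the neural cells.

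**Figure D1:**
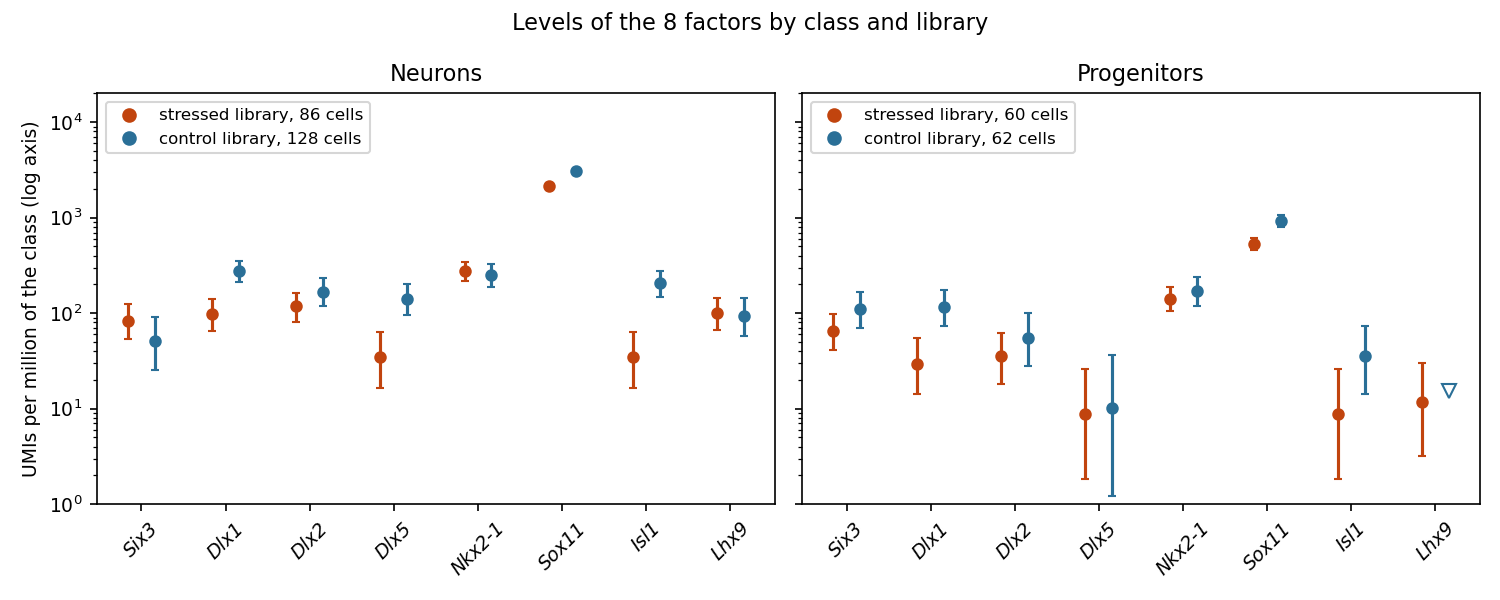
Points give CPM (log axis) of each factor in neurons (left) and progenitors (right), the stressed library in orange left of the control library in blue, with 95% exact Poisson intervals; the open triangle marks the floor of 3 counts for Lhx9, which had 0 UMIs in control progenitors. In neurons Dlx1, Dlx5 and Isl1 stood more than 2 times lower in the stressed library, against 3.93% of 3614 genes with at least 20 UMIs.

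**Figure D2:**
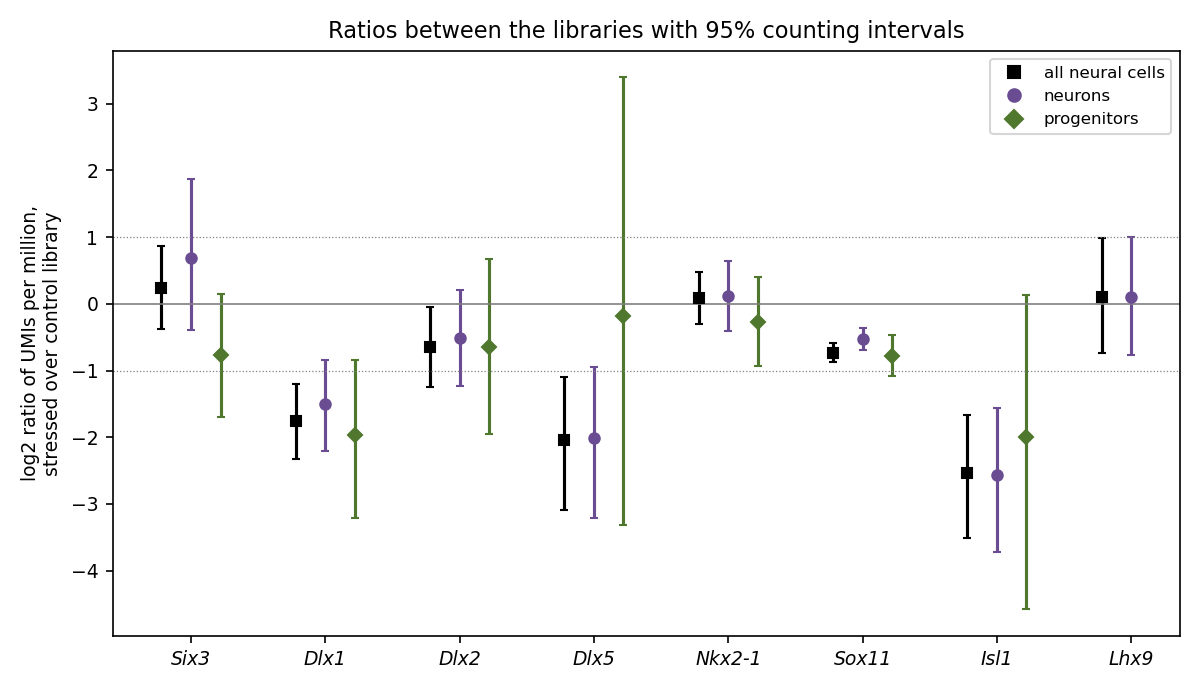
Points give the log2 ratio of CPM, stressed over control, in all neural cells, in neurons and in progenitors, with 95% counting intervals; dotted lines mark 2 times in either direction. Dlx1, Dlx5 and Isl1 lie below −1 in all neural cells, and Six3, Nkx2-1 and Lhx9 have intervals that hold 0; the progenitor value of Lhx9 is not drawn because the control sum was 0.

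Lists of other regional factors were counted by the same measure, each over its genes with at least 20 UMIs in neural cells. Of 20 genes of the Dlx and ganglionic eminence list, 14 had that many, and 9 of the 14 were 1.5 times lower in stressed cells and 1 higher, with a median log2 ratio of −0.96. Over all 6617 genes with at least 20 UMIs, 13.3% were 1.5 times lower and 10.4% higher, with a median of −0.07. Dlx6os1, the long noncoding RNA of the Dlx5 and Dlx6 locus, stood at 123 CPM in stressed and 259 CPM in control neural cells (−1.07, −1.50 to −0.65). Sp9 was at −1.28 (−2.19 to −0.40) and Meis2 at −1.14 (−1.64 to −0.65). Pbx3, at 0.82 (−0.49 to 2.32), was the 1 that stood higher. Of 26 hypothalamus genes, 8 had at least 20 UMIs, with 2 higher, 1 lower and a median of 0.30. Of 20 thalamus and prethalamus genes, 10 did, with 1 higher (Pax6, 1.06, 0.30 to 1.89), 1 lower (Prox1, −0.77, −1.46 to −0.08) and a median of 0.02. Of 9 cortex genes, 4 did, with 2 higher, 1 lower (Bcl11b, −1.31, −1.85 to −0.78) and a median of 0.33. Sox4 and Sox12, the SoxC list, had a median of −0.67.

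Neurons were compared with progenitors over both libraries, with UMIs summed per library and class, library as a term, and edgeR's quasi-likelihood test over 4093 genes other than the gate's markers. With 4 sums the spread rests on 1 residual degree of freedom per gene, shared across genes. Of the 6 factors with enough UMIs to be tested, 5 were higher in neurons and 0 lower at an adjusted p under 0.05, against 14.0% of genes higher and 15.0% lower. Lhx9 entered the test only through its neuron sums, at 100 and 93.6 CPM in stressed and control neurons, against 11.8 and 0 CPM in progenitors. Dlx1 and Dlx2, at 29.6 and 35.5 CPM in stressed progenitors, also needed a neuron sum to enter. The count of called factors is therefore not read against these shares. Sox11 had 2130 and 3064 CPM in stressed and control neurons, and 536 and 919 CPM in the progenitors of the same libraries. Its log2 ratio was 1.87 (edgeR adjusted p = 1.84e-45).

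Nearly all Lhx9 UMIs lay in neurons. It had 29 and 20 UMIs in stressed and control neurons, and 4 and 0 UMIs in stressed and control progenitors, the 4 all in 1 cell of 28384 UMIs whose barcode both libraries held. The fitted log2 ratio was 3.65 (edgeR adjusted p = 1.11e-08). With the 0 of control progenitors set to the floor of 3 counts, Lhx9 was 6.18-fold higher in control neurons. This is a log2 ratio of 2.63, and the lower end of its counting interval was 2.19.

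Dlx1 was 3.28 times higher in stressed neurons and 2.38 times higher in control neurons than in the progenitors of each library, a fitted log2 ratio of 1.43 (edgeR adjusted p = 0.000115). Dlx2 was 3.32 times and 3.03 times higher, with 1.66 (edgeR adjusted p = 6.79e-05). Nkx2-1 had 274 and 253 CPM in stressed and control neurons, and 142 and 172 CPM in stressed and control progenitors, with 0.77 (edgeR adjusted p = 0.00737). Its ratio was 0.95 (0.41 to 1.49) in the stressed library, where 25 of 79 neuron UMIs lay in 1 cell. In the control library it was 0.56, with an interval that held 0 (−0.09 to 1.22), and the lowest ratio of the alternatives was 0.0085. Six3 did not pass, at −0.27 (edgeR adjusted p = 0.646), with ratios of 0.35 (−0.54 to 1.26) in the stressed and −1.11 (−2.30 to −0.00472) in the control library. Dlx5 and Isl1 had too few UMIs for the test. Their ratios per library were 1.96 (0.01 to 4.46) in the stressed library for each, and 3.80 (1.82 to 6.91) for Dlx5 and 2.54 (1.38 to 3.94) for Isl1 in the control library. DESeq2 with the same design called Sox11 and Lhx9, 2 of the 6, and the adjusted p of Dlx1, Dlx2 and Nkx2-1 missed 0.05 in it. With thinned cells 1 of 4 tested was called. Of the related genes of the lists, Dlx6os1 (2.92), Sp9 (3.26) and Lhx8 (2.34) were higher in neurons, each with an edgeR adjusted p under 0.05.

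Joint expression was counted cell by cell for the 28 pairs of factors. In 11 pairs more cells held both than the product of the 2 shares gives, in both libraries, with cells thinned to 1000 UMIs, in 8 pairs fewer, and 9 pairs were mixed. With UMIs as deposited these counts were 18, 6 and 4. Pairs were placed by direction alone, however small the difference. Thinned, Six3 with Sox11 counted as more at 8 control cells (product 7.57). Isl1 with Lhx9 counted as fewer at 0 cells in each library (products 0.34 and 0.71). The product was taken over neurons and progenitors together, and no share over other gene pairs was counted, so the number of pairs is a description only.

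Dlx1 and Dlx2, the neighbouring pair, were found together beyond the product in both libraries. As deposited, both were found in 16 stressed cells, where the product gives 4.48, and in 20 control cells, where it gives 6.89. Thinned, 4 of 9 stressed Dlx1 cells (44.4%, 13.7 to 78.8%) held Dlx2, against 6.72% of stressed cells without Dlx1. Of 31 control Dlx1 cells, 13 did (41.9%, 24.5 to 60.9%), against 2.88% of those without. The same excess of joint cells, as deposited, held for Dlx1 with Dlx5 (7 stressed and 13 control cells, products 1.40 and 6.22) and for Dlx2 with Dlx5 (8 and 11 cells, products 2.13 and 4.38). Thinned, Dlx1 met Dlx5 in 2 stressed and 4 control cells (products 0.25 and 2.19), while Dlx2 met Dlx5 in 0 stressed cells (product 0.36) and 2 control cells (product 1.20), so Dlx2 with Dlx5 was mixed. Any of the 3 Dlx genes was found in 39 stressed cells (26.0%) and 65 control cells (32.8%), and in 20 of 143 (14.0%, 8.76 to 20.8%) and 42 of 170 (24.7%, 18.4 to 31.9%) at equal depth. Of the cells with any Dlx, 17 of 39 stressed and 32 of 65 control cells held at least 2 of them.

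Lhx9 showed the opposite pattern. As deposited, 1 of 15 stressed and 1 of 11 control Lhx9 cells held any Dlx gene, against 38 of 135 stressed and 64 of 187 control cells without Lhx9. Thinned, 0 of 8 stressed and 0 of 6 control Lhx9 cells did. Nkx2-1 was found in 0 stressed and 1 control Lhx9 cell, and Six3 and Isl1 in none. With so few Lhx9 cells, a share of up to 36.9% in the stressed and 45.9% in the control library lies within the thinned intervals. Six3 met Nkx2-1 in 12 stressed cells (product 8.49) and 10 control cells (product 5.52) as deposited. Thinned, Six3 and Nkx2-1 met in 6 stressed cells (product 1.34) but in 2 control cells (product 2.07), so this pair was mixed.

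Isl1 met each Dlx gene a little more often than the product as deposited, with Dlx5 in 2 stressed cells (product 0.80) and 8 control cells (product 4.81). Thinned, Isl1 with Dlx2 was mixed, at 2 stressed cells (product 0.55) and 1 control cell (product 2.00). Isl1 then met Dlx1 in 2 stressed and 4 control cells (products 0.38 and 3.65), and Dlx5 in 1 and 3 (products 0.17 and 1.41). Counting the 7 factors without Sox11, 49 stressed and 75 control neural cells held none, and 38 stressed (25.3%) and 61 control cells (30.8%) held at least 2. At equal depth, at least 2 were found in 10.5% (5.99 to 16.7%) of stressed and 22.9% (16.9 to 30.0%) of control cells. As deposited, Nkx2-1 alone was the most common set, in 22 stressed and 19 control cells. Lhx9 alone was found in 14 stressed and 10 control cells, Six3 alone in 12 and 4, Isl1 alone in 5 and 11, and Dlx1 alone in 10 control cells.

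**Figure D3:**
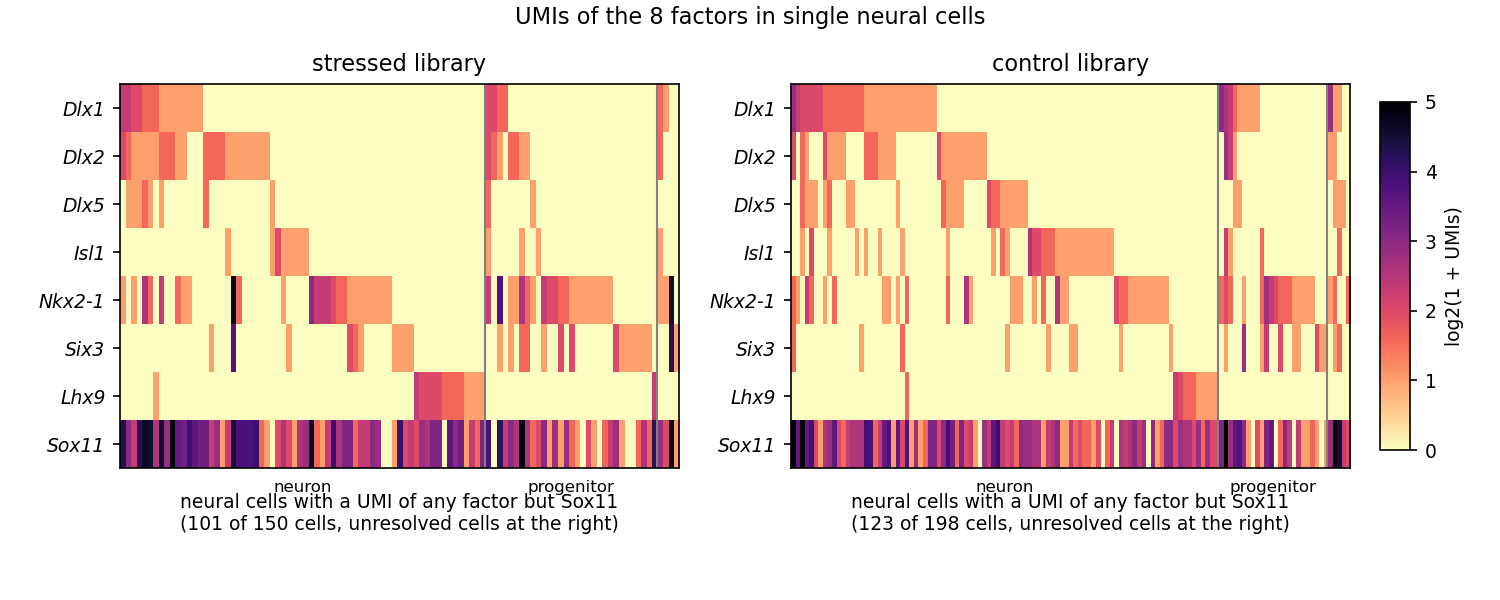
Columns are single neural cells with a UMI of any factor but Sox11, 101 of 150 in the stressed library (left) and 123 of 198 in the control library (right), sorted within neurons and progenitors; colour gives log2(1 + UMIs). Dlx1, Dlx2 and Dlx5 share cells, the Lhx9 block at the right of the neurons is nearly empty of other factors but Sox11, and 2 stressed cells are dark for both Nkx2-1 and Six3.

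**Figure D4:**
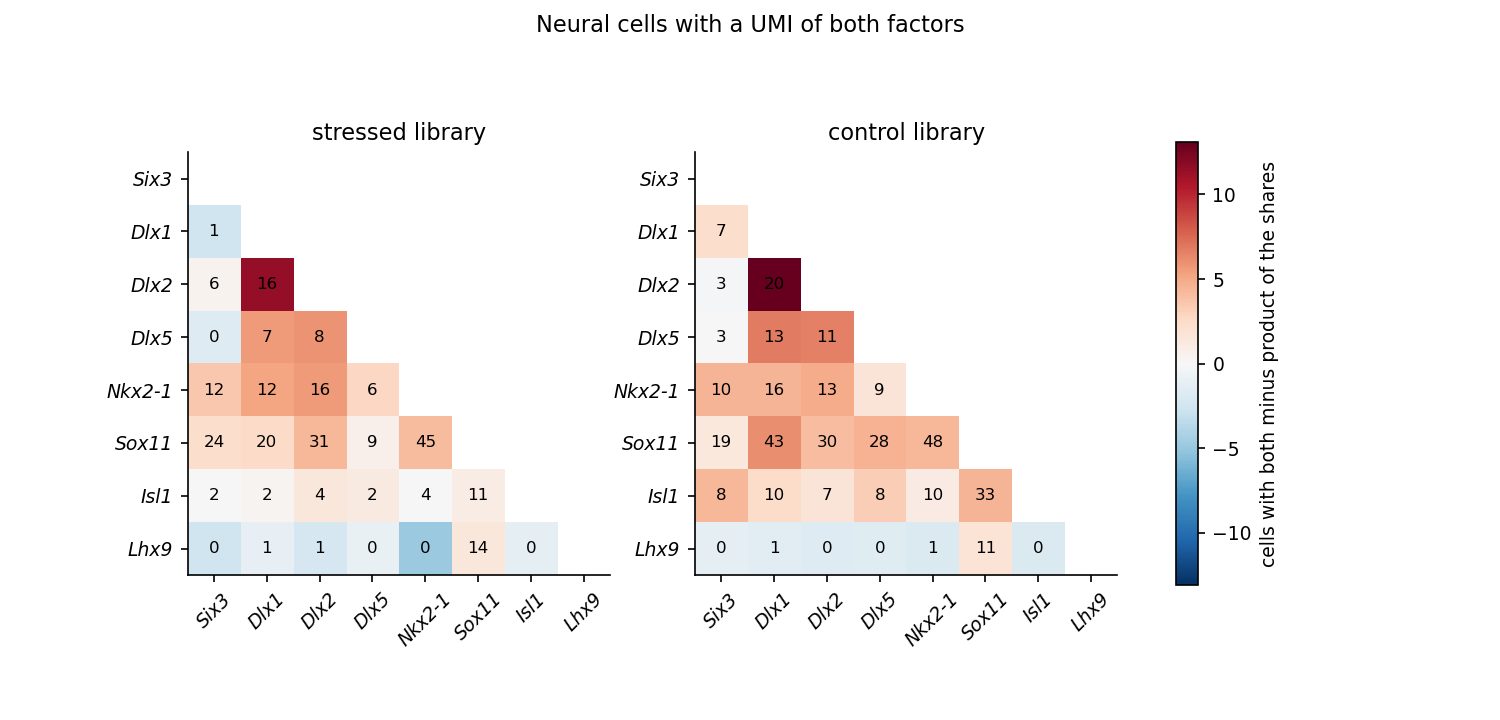
Numbers give the neural cells with a UMI of both factors, as deposited, and colour gives that number minus the product of the shares, for the stressed library (left) and the control library (right). Dlx1 with Dlx2 has 16 and 20 cells and the strongest red, and every pair of Lhx9 but that with Sox11 is blue.

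Transmitter genes, none of them a factor or a marker of the gate, were counted in neurons with and without each factor. These lists, like the factors, were chosen with earlier results of these data known. GABA genes (Gad1, Gad2, Slc32a1) were found in 16 of 28 stressed neurons with any Dlx gene (57.1%, 37.2 to 75.5%), against 12 of 58 without (20.7%). In control neurons they were found in 22 of 52 with any Dlx (42.3%, 28.7 to 56.8%), against 14 of 76 without (18.4%). A glutamate transporter gene (Slc17a6, Slc17a7) was found in 0 of 28 stressed and 0 of 52 control neurons with any Dlx gene, against 11 of 58 and 9 of 76 without. Median depths were similar with and without Dlx, 2721 and 2987 UMIs in stressed and 1432 and 1497 UMIs in control neurons. At equal depth GABA genes were found in 4 of 14 stressed and 10 of 34 control Dlx neurons, 28.6% and 29.4%, against 16.4% and 17.6% without, and these intervals overlapped. Over all neural cells at equal depth, a glutamate transporter gene was found in 0 of 20 stressed and 0 of 42 control cells with any Dlx gene. Without Dlx it was found in 0 of 123 stressed and 6 of 128 control cells. The control intervals, 0 to 8.41% with and 1.74 to 9.92% without, overlapped. In myeloid cells, which should lack these genes, GABA genes were found in 1.69% of stressed and 0.237% of control cells, and glutamate transporter genes in 1 cell of each library.

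In Lhx9 neurons no GABA gene was found. GABA genes were found in 0 of 14 stressed and 0 of 11 control neurons with Lhx9, against 28 of 72 and 36 of 117 without it. Glutamate transporter genes were found in 3 of 14 stressed and 2 of 11 control Lhx9 neurons, against 8 of 72 and 7 of 117 without. These shares, 21.4% (4.66 to 50.8%) and 18.2% (2.28 to 51.8%) with Lhx9 and 11.1% (4.92 to 20.7%) and 5.98% (2.44 to 11.9%) without, overlapped in their intervals. Lhx9 neurons were also the deeper ones, at medians of 3330.5 UMIs against 2721 UMIs in the stressed and 1698 UMIs against 1448 UMIs in the control library. Thinned, neither kind of gene was found in the 8 stressed and 6 control Lhx9 neurons. In Nkx2-1 neurons both kinds were found, GABA genes in 7 of 26 stressed and 8 of 33 control cells and glutamate transporter genes in 5 and 4. Isl1 neurons held GABA genes in 4 of 8 stressed and 8 of 30 control cells, shares whose intervals overlap those of the neurons without Isl1.

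**Figure D5:**
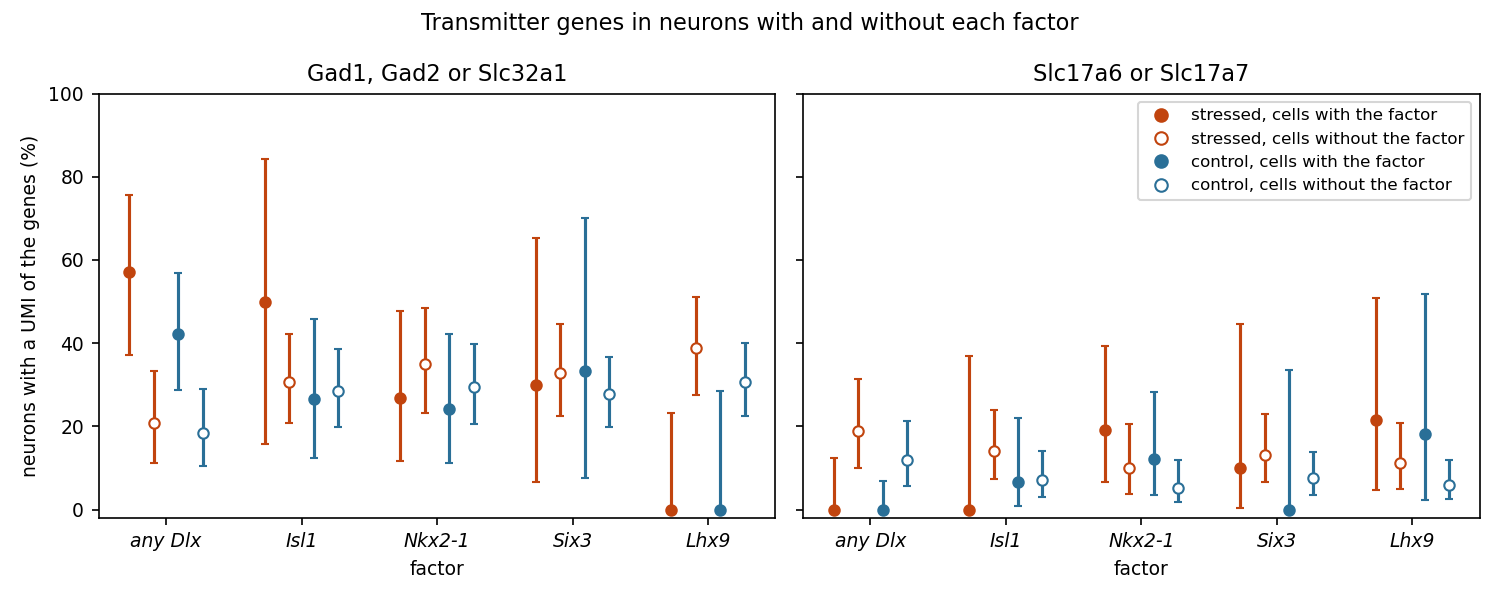
Points give the percent of neurons with a UMI of a GABA gene (left) or a glutamate transporter gene (right), for cells with (filled) and without (open) each factor, the stressed library in orange left of the control library in blue, with exact 95% binomial intervals. For GABA genes as deposited, the filled points of any Dlx lie above the open ones, 57.1% against 20.7% and 42.3% against 18.4%. For the glutamate transporters they lie at 0, and Lhx9 is at 0 for GABA genes. At equal depth the intervals with and without any Dlx overlapped, for GABA genes in neurons and for glutamate transporters over all neural cells.

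In progenitors the factors were also set against 12 genes of the cell cycle. At least 3 of these were found in 9 of 20 stressed and 13 of 16 control progenitors with Nkx2-1 (45.0% and 81.2%), against 11 of 40 and 8 of 46 without it (27.5% and 17.4%). Control progenitors with Nkx2-1 were also deeper, at a median of 3228.5 UMIs against 1836 UMIs. At equal depth the counts were 2 of 10 stressed and 4 of 11 control Nkx2-1 progenitors, against 6 of 48 and 4 of 44, with overlapping intervals. Sox11 progenitors went the same way at equal depth, 5 of 27 stressed and 5 of 19 control cells, against 3 of 31 and 3 of 36 without. Those intervals overlapped too. Progenitors with any Dlx gene had at least 3 cycle genes in 7 of 9 stressed and 5 of 9 control cells, against 13 of 51 and 16 of 53 without. At equal depth the counts were 1 of 5 stressed and 2 of 6 control cells, against 7 of 53 and 6 of 49, and these intervals overlapped.

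Over the 348 neural cells of both libraries, with values centred within each library, the genes most like each factor were found among 5984 genes by Pearson's r of log-scaled UMIs, given as a description since cells share libraries and depth. Lhx9 was most like Zic4, a zinc-finger factor gene of the thalamus (r = 0.59), Pcca (0.52) and Gng8 (0.49), each with r over 0.47 in the stressed and in the control library alone. Dlx1 and Dlx2 were both most like Dlx6os1 (r = 0.45 and 0.37). Sox11 was most like Stmn1 (0.57) and Tubb5 (0.48), both of the microtubule skeleton, and H3f3a (0.44), a histone gene. Nkx2-1 was most like Mbip (0.32), which lies 186063 bases away on the same chromosome, and Six3 most like Dlk1 (0.32). For Dlx5 and Isl1 no gene reached 0.3.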

How the data were processed

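The study is 10x Genomics 3′ v3 single-cell RNA-seq, 1 library per condition. The authors deposited whole-number UMI counts for each gene in each barcode, not normalized, made with software version 3.0.0 per the file headers. The submitters' processing notes name Cell Ranger 3.0.0, STAR, Seurat 2.4, GRCm38.p5 and mm10 without the role of each, and whether counts used the strand is not given in the sources used here. The files hold 1467 stressed and 1156 control barcodes, as many as the labels say were recovered, with 6582188 and 2833015 UMIs. The 8 factors and all gene lists were chosen with earlier results of these data known.

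Kept cells had 500 genes or more and 10% mitochondrial UMIs or less. A neural cell had a UMI of at least 3 of 24 neural markers, and of more of these than of 24 myeloid or of 12 vascular and mural markers, and progenitors and neurons were split by which of 12 markers each were more numerous. Doublets were not removed, since Scrublet's own threshold marked 2 stressed and 3 control cells, so leaving out the highest 3.5% of scores was an alternative. Counts were summed per class and scaled to CPM, with exact Poisson intervals for levels, conditional exact binomial intervals for log2 ratios, and Clopper-Pearson intervals for shares, all at 95% and for counting error only. A sum of 0 was set to 3 counts in ratios. For joint detection, each cell was thinned to 1000 UMIs by 1 seeded draw, which left out 7 stressed and 28 control neural cells. Levels were not divided by length, since 3′ libraries count 1 tag per molecule, and are compared between classes and libraries, not between genes.

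Neurons and progenitors were compared with edgeR 4.0.16 (filterByExpr, glmQLFit, glmQLFTest, library and class as terms, Benjamini-Hochberg over all genes). The fit and the ratios were tested on simulated data. DESeq2 1.42.0 was an alternative. Named genes are the 8 factors, up to 3 genes per factor with r of at least 0.3 among genes in at least 20 cells, and list genes with at least 20 UMIs. Some genes of the lists are counted in the list totals but not reported here by name.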

Additional observations from a re-analysis of the deposited data

Results flagged for a closer look

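For Six3 the difference between neurons and progenitors had opposite signs in the libraries. The log2 ratio, neurons over progenitors, was 0.35 in the stressed library (24 and 22 UMIs) and −1.11 in the control library (11 and 22 UMIs). This difference between the libraries was not tested, since each condition is 1 library. Of the 24 UMIs in stressed neurons, 12 lay in 1 cell.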

How the results depend on the processing

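Dlx1, Dlx5 and Isl1 kept a log2 ratio of −0.9999 or lower in all neural cells under every alternative run, from −2.10 to −1.29 for Dlx1, −2.23 to −0.9999 for Dlx5 and −2.74 to −1.92 for Isl1. Dlx2 ranged from −0.73 to −0.12 and Sox11 from −0.78 to −0.29. The number of factors 1.5 times lower in neural cells was 3 in place of 5 with the stricter filter on genes and mitochondrial UMIs, without cells of 4 or more myeloid markers, and with thinned cells, and 1 was then higher with the stricter filter (Lhx9). In neurons it was 5 in place of 3 by Leiden clusters, and the number higher, 1, was 2 with the stricter filter and among cells with Xist and no Y-linked UMI, and 0 with at least 5 neural markers, with mean single-cell CPM and without the top cell. With a minimum of 20, 100 or no CPM in place of 50, genes 2 times lower numbered 407 of 6936 (5.87%), 39 of 1720 (2.27%) and 2670 of 14864 in neural cells, in place of 91 of 3421 (2.66%). In neurons they numbered 705 of 6808 (10.4%), 49 of 1742 (2.81%) and 3015 of 13198 (22.8%), in place of 204 of 3423 (5.96%). With at least 20 UMIs over both libraries they were 250 of 6617 in neural cells and 142 of 3614 in neurons.

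Of the factors called higher in neurons by edgeR, 5, DESeq2 called 2, the stricter filter and the Xist cells 3 each, and thinned cells 1. Genes called higher and lower in neurons, 572 and 615, were 89 and 87 with DESeq2, 242 and 299 with the stricter filter, 365 and 384 in the Xist cells, 346 and 358 without shared barcodes, and 155 and 149 with thinned cells. They were 371 higher without the highest Scrublet scores. The cause was not tested. Leaving out a library left no residual spread, so these are ratios with no test: Dlx1 1.25 to 1.71, Dlx2 1.60 to 1.73, Sox11 1.74 to 1.99, Nkx2-1 0.56 to 0.95, Six3 −1.11 to 0.35 and Lhx9 2.63 to 3.09. Across all alternatives run, the ratio of neurons over progenitors ranged from 0.50 to 2.44 for Dlx1, 1.00 to 2.39 for Dlx2 and 1.74 to 2.22 for Sox11. It ranged from 0.0085 to 0.95 for Nkx2-1, −1.11 to 0.35 for Six3 and 2.63 to 7.50 for Lhx9. The share of control Dlx1 cells with Dlx2 was 23.8% at 2 or more UMIs. The neural share was 8.02% in stressed and 16.1% in control cells when thinned, and in control cells 14.1% with the stricter filter and 13.3% with at least 5 markers. With the stricter filter progenitors were 50.7% and neurons 45.1% of control neural cells.

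No paired analysis was possible between the conditions because each is 1 library; the shared number 1 pairs nothing, and library as a term in the neuron fit is the block of its 4 sums, without which 4 factors were called. The alternatives on haemoglobin, shared barcodes, single top cells, Xist and the minimum of 20 UMIs were chosen after seeing the data. Depth limits Dlx5, Isl1 and Lhx9 most, with 13 to 53 UMIs per library.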
